A study of Mus musculus with 6 samples.

Results

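The 10 genes described here code for proteins of the Z-disc of skeletal muscle. They are *Actn2*, *Actn3*, *Myoz1*, *Myoz3*, *Myot*, *Tcap*, *Ldb3*, *Csrp3*, *Pdlim3* and *Pdlim5*, chosen by name with earlier results of these data known. They are 10 of the 56262 genes in the count table. All 10 were measured in every sample, with 564 to 188914 counts per gene and sample. They passed the filter on low counts, which left 22071 genes to be tested.

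The Z-disc is the plate that borders each sarcomere, the contractile unit of a muscle fiber. Actin filaments from neighbouring sarcomeres enter it with opposite polarity and are tied together there by alpha-actinin. Smaller proteins bind alpha-actinin, titin or filamin and fix the plate to the membrane and to signalling enzymes such as calcineurin, and several of them are known from inherited myopathies and cardiomyopathies.

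RNA-seq was carried out on leg muscle of mouse fetuses at embryonic day 18.5 (E18.5), with 3 wild type (WT) and 3 *SYISL* knockout (KO) samples. *SYISL* is a long noncoding RNA from within the *Synpo2* gene, and the comparison asks what its loss changes in fetal muscle. Parents of a litter had the same genotype, so the genotype of the fetus, of the mother and of the litter cannot be told apart. The labels do not say whether a sample held the muscle of 1 fetus or of several, nor which litter it came from, so the p-values measure only the spread between these samples. Each genotype held samples with and almost without counts on Y-linked genes, so its samples did not all come from the same fetus. Each sample held 82054811 to 102233181 counts. Deletion of *SYISL* itself was not checked here, since counts are per annotated gene. The 14 muscle fiber markers were detected in all samples, in keeping with the tissue named in the labels. The lowest of them, *Tnnc2*, held only 51 to 133 counts per sample. Markers of keratinocytes, the cells of the epidermis, were also present, at a summed level of 16106 to 24275 CPM (counts scaled to the TMM-adjusted library total of each sample) in WT and 682 to 789 CPM in KO.

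RefSeq promoter windows (GRCm38.p6) were at hand for 5 of the 10 genes, as 8 windows. The 250 bases before the start are shown for *Actn2*, which had the highest level, for *Csrp3* and *Pdlim3*, and for *Ldb3*, whose window held no E-box. They lie at chr13:12340733-12340982 on the minus strand for *Actn2*, chr14:34588682-34588931 on the minus strand for *Ldb3* (window 1 of 2), chr7:48848052-48848301 on the minus strand for *Csrp3* (window 1 of 2) and chr8:45885237-45885486 on the plus strand for *Pdlim3*. Each is written 5′ to 3′ on the strand of its gene. Capitals mark every match, on either strand, to the motifs searched, namely the E-box CANNTG (bound by MyoD and other basic helix-loop-helix factors) and its muscle form CAGCTG, which is contained in CANNTG, the MCAT motif CATTCC, the TATA motif TATAAA, the MEF2 motif and the CArG box (bound by serum response factor).
Actn2: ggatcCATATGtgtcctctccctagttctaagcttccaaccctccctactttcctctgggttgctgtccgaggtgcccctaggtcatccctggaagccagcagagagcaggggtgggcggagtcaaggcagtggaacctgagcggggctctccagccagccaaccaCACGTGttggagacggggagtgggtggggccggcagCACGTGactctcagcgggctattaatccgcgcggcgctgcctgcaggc
Ldb3: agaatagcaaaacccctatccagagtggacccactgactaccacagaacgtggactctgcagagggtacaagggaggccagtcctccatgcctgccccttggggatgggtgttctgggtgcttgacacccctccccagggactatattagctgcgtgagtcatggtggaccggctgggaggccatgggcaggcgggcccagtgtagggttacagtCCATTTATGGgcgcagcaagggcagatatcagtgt
Csrp3: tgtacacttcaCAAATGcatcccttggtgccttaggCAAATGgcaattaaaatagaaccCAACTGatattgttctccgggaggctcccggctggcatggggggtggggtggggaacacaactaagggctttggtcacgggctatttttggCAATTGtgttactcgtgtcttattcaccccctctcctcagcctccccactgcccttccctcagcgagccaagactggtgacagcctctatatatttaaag
Pdlim3: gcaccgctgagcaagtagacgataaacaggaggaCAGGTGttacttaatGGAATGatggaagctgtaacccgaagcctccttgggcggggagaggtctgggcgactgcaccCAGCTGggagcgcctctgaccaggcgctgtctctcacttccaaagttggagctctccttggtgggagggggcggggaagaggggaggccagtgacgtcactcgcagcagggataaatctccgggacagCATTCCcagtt

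The *Actn2* window held 3 matches to CANNTG, which began 245, 84 and 48 bases before the start. The *Csrp3* window held 4, of which the nearest began 100 bases before the start. In *Pdlim3*, 1 of the 2 CANNTG matches was the muscle form CAGCTG, 139 to 134 bases before the start, and CATTCC was found once on each strand. The *Ldb3* window held a CArG box 35 to 26 bases before the start. The second window of *Csrp3* held 4 CANNTG matches, 1 of the 2 *Pdlim5* windows held 1, and the other held TATAAA on the minus strand. No window of these genes held the MEF2 motif. Of all 32851 windows in the table, 66.2% held CANNTG, 13.0% CAGCTG, 12.6% CATTCC, 12.4% TATAAA, 2.92% the MEF2 motif and 1.47% a CArG box. These matches are letters in a window and are not shown to be bound.

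All 10 genes were higher in KO than in WT leg muscle after TMM scaling, which sets each gene against the bulk of genes in a sample. When samples were scaled to muscle fiber genes, 5 of the 10 turned below 0. *Actn3*, *Tcap* and *Myoz1* stood furthest apart and *Actn2* least, with log2 fold changes from 0.70 to 2.59. A gene was called when its adjusted p-value from edgeR's quasi-likelihood test was under 0.05 and its fold change over 1.5, and 10 of 10 were called higher and 0 lower, where 16.7% of all genes tested were called in either direction, 8.31% higher and 8.39% lower. The median log2 fold change was 1.23 over the 10 genes and -0.00415 over all 22071. In all 10 the lowest KO sample lay above the highest WT sample, by 1.48 to 4.93 times, and 27.3% of all genes tested were separated in that way. Of the 10, 6 were called at a fold change over 2, against 3.51% of all genes. The 10 genes were chosen with earlier results of these data known, so these shares are no test of them as a set.

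The direction of this difference held relative to the bulk of genes in the sample and not for each gene relative to 14 muscle fiber genes. Under TMM the log2 fold changes of these 14 genes themselves ran from -0.04 (*Myh3*) to 1.59 (*Myh8*). Values on their scale thus depend on the genes chosen for it. When samples were scaled to 14 muscle fiber genes in place of all genes, the log2 fold change of the median gene shifted by -1.13, and *Actn3* and *Tcap* alone of the 10 were called higher. On that scale 5 of the 10 log2 fold changes were below 0, those of *Actn2*, *Ldb3*, *Csrp3*, *Pdlim3* and *Pdlim5*. That of *Pdlim3* was -0.01 (edgeR adjusted p = 0.95), and none of the 10 was called lower. By the same scaling 0.874% of all genes were called higher and 87.8% lower. In bulk tissue a larger share of fibers and more RNA of these genes per fiber cannot be told apart.

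**Figure D1:**
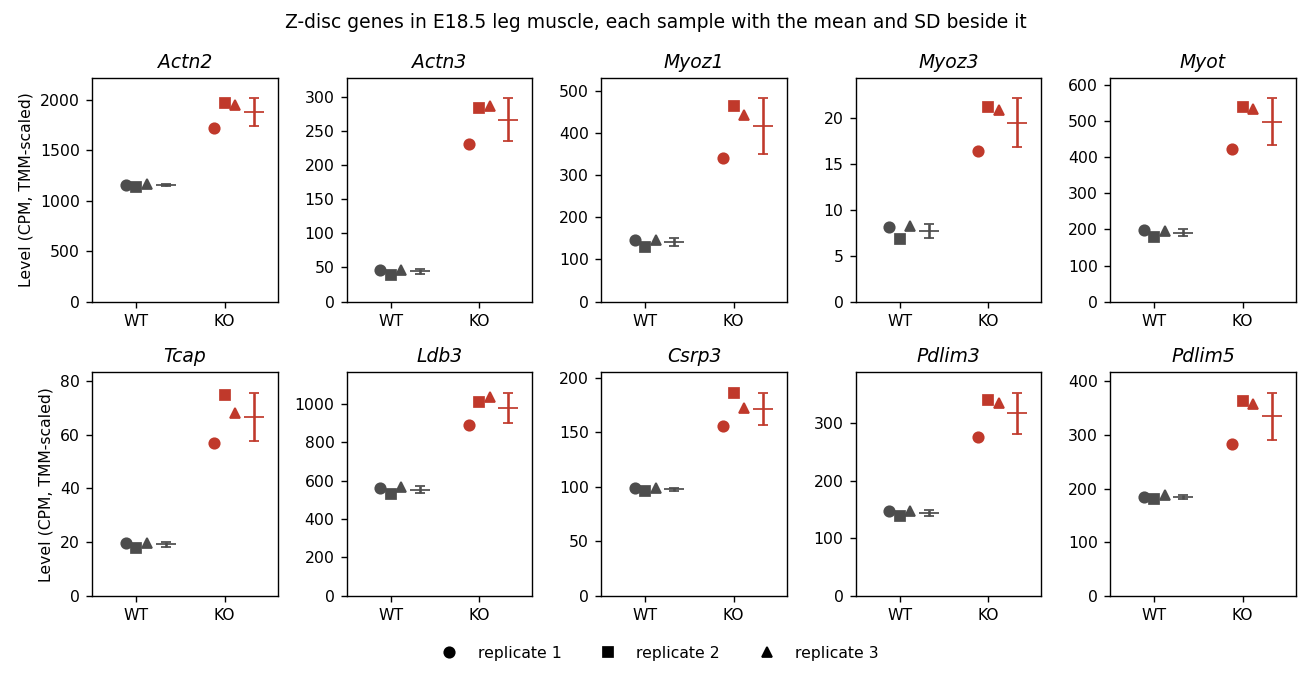
Level of each Z-disc gene in CPM (TMM-scaled, linear axes from 0) in each WT (grey) and KO (red) sample, with the mean and SD of 3 samples to the right of the points. After TMM scaling every KO sample lay above every WT sample in all 10 genes, KO replicate 1 was the lowest of the KO samples throughout, and scaled to muscle fiber genes 5 of the 10 differences turn below 0.

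The sarcomeric alpha-actinins are *Actn2*, found in all striated muscle fibers, and *Actn3*, which in adult muscle is restricted to fast fibers. *Actn2* (ENSMUSG00000052374.16, chr13:12269426-12340760 of mm10, minus strand) was at 1152, 1139 and 1161 CPM in WT replicates 1 to 3 and at 1715, 1967 and 1942 CPM in KO replicates 1 to 3. The WT samples were nearly level and the genotypes did not overlap. It was 1.63-fold higher in KO (1875 ± 139 against 1151 ± 11.0 CPM, mean ± SD, n = 3), with a log2 fold change of 0.70 (SE 0.0659, edgeR adjusted p = 2.442e-05) that turned to -0.43 (adjusted p = 0.000366) when scaled to muscle fiber genes.

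*Actn3* (ENSMUSG00000006457.4, chr19:4861216-4877909, minus strand) had the largest difference of the 10 genes. It was at 46.3, 39.3 and 46.7 CPM in WT and at 230.3, 283 and 286 CPM in KO. The lowest KO sample was thus 4.93 times the highest WT sample. The mean rose from 44.1 ± 4.19 to 267 ± 31.4 CPM (SD, n = 3), 6.04-fold, with a log2 fold change of 2.59 (SE 0.0971, edgeR adjusted p = 1.07e-07). By that value *Actn3* ranked 66 among the 22071 genes tested. Scaled to muscle fiber genes, its log2 fold change was 1.46 (adjusted p = 1.36e-24).

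The balance of the 2 paralogs was taken within each sample, which removes the scaling between samples. Counts per kilobase of exon of *Actn3* were 0.0526, 0.0451 and 0.0526 of those of *Actn2* in WT and 0.176, 0.188 and 0.193 in KO. The share of *Actn3* in the sum of both was therefore 5.0%, 4.31% and 5.0% in WT and 14.9%, 15.9% and 16.1% in KO. *Actn2* thus remained the more abundant alpha-actinin in all 6 samples. The log2 ratio was -4.32 ± 0.129 in WT and -2.43 ± 0.0695 in KO (SD, n = 3), a difference of 1.89 or 3.71-fold, with p = 0.1 by a two-sided exact permutation test, the smallest p that 3 against 3 samples allow. The non-muscle alpha-actinins did not pass the thresholds and their genotypes overlapped: *Actn1* was at 124 ± 6.65 and 118 ± 4.61 CPM (log2 fold change -0.08, edgeR adjusted p = 0.2491) and *Actn4* at 343 ± 25.6 and 315 ± 10.7 CPM (-0.13, adjusted p = 0.1214) in WT and KO. Scaled to muscle fiber genes, both were called lower, at -1.21 and -1.25, where most of all genes were.

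**Figure D2:**
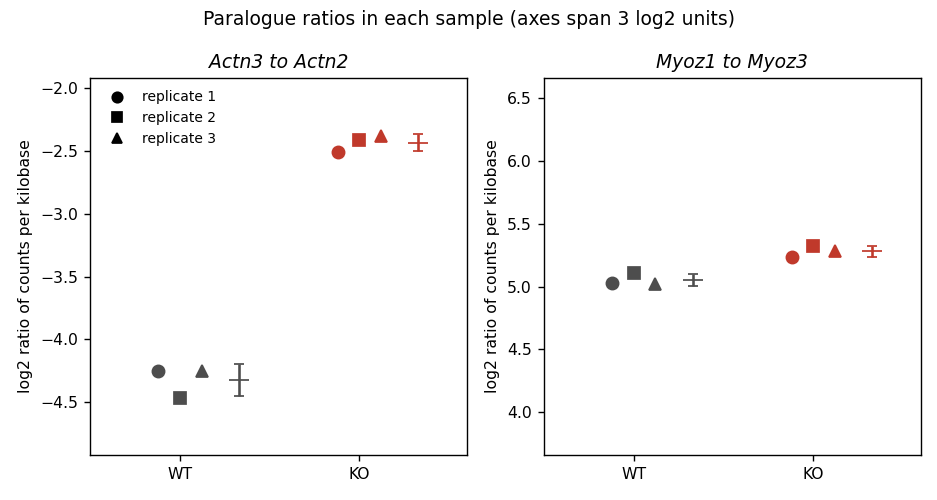
Log2 ratio of counts per kilobase of exon for *Actn3* to *Actn2* (left) and *Myoz1* to *Myoz3* (right) in each WT (grey) and KO (red) sample, with mean and SD of 3 samples beside the points; both axes span 3 log2 units. The ratio of *Actn3* to *Actn2* differed by 1.89 between genotypes and that of *Myoz1* to *Myoz3* by 0.22.

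The myozenins, also called calsarcins, link alpha-actinin and gamma-filamin to calcineurin, and *Myoz1* and *Myoz3* are the forms of fast fibers. *Myoz1* (ENSMUSG00000068697.7, chr14:20649107-20656540, minus strand) was at 147, 130 and 147 CPM in WT and at 341, 464 and 443 CPM in KO. Its mean was 2.95-fold higher in KO (416 ± 65.7 against 141 ± 9.69 CPM), with a log2 fold change of 1.56 (SE 0.107, edgeR adjusted p = 3.101e-06). KO replicate 1 stood below the other KO samples, and the CV of 15.8% in KO was the highest of the 10 genes. Relative to muscle fiber genes the log2 fold change was 0.42, not called since it was under 1.5-fold (adjusted p = 0.00101).

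*Myoz3* (ENSMUSG00000049173.8, chr18:60573750-60591788, minus strand) was the least abundant of the 10 genes. It was at 8.13, 6.83 and 8.21 CPM in WT and at 16.4, 21.2 and 20.8 CPM in KO. The means were 7.72 ± 0.78 and 19.4 ± 2.66 CPM, a 2.52-fold difference and a log2 fold change of 1.33 (SE 0.111, edgeR adjusted p = 1.113e-05). Relative to muscle fiber genes it was not called (0.19, adjusted p = 0.195). Per kilobase, *Myoz1* was 32.7, 34.6 and 32.5 times as abundant as *Myoz3* in WT and 37.8, 39.8 and 38.7 times in KO. The ranges of this ratio did not overlap, and its log2 difference was 0.22, or 1.17-fold (p = 0.1 by the exact permutation test, two-sided, the smallest possible here).

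*Myot* codes for myotilin, which binds alpha-actinin and filamin and bundles actin. At chr18:44334074-44355724 on the plus strand (ENSMUSG00000024471.12), it was at 199, 180 and 195 CPM in WT and at 423, 539 and 534 CPM in KO. The 2.61-fold higher mean (499 ± 65.2 against 191 ± 9.98 CPM) corresponded to a log2 fold change of 1.38 (SE 0.0906, edgeR adjusted p = 2.349e-06). On the muscle fiber scale 0.24 remained, which was not called (adjusted p = 0.056).

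*Tcap* codes for telethonin, the cap that joins the ends of paired titin molecules at the Z-disc. The gene is short, with 948 exon bases at chr11:98383811-98384953 on the plus strand (ENSMUSG00000007877.2). It was at 19.7, 17.9 and 19.8 CPM in WT and at 56.9, 74.8 and 67.9 CPM in KO. After *Actn3* it had the largest rise of the 10, 3.48-fold from 19.1 ± 1.08 to 66.5 ± 9.04 CPM, with a log2 fold change of 1.80 (SE 0.0924, edgeR adjusted p = 5.002e-07). Its titin partner *Ttn* rose 1.85-fold under TMM (log2 fold change 0.88, edgeR adjusted p = 1.04e-05), which became -0.25 on the muscle fiber scale (adjusted p = 0.0339). *Tcap* was called higher on both scales, with 0.66 relative to muscle fiber genes (adjusted p = 2.12e-06).

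The remaining 4 genes carry LIM domains or, in *Ldb3*, *Pdlim3* and *Pdlim5*, a PDZ domain together with LIM domains. *Ldb3* (ENSMUSG00000021798.14, chr14:34526603-34588682, minus strand) codes for ZASP, also named Cypher, which holds alpha-actinin in place. It was at 561, 531 and 564 CPM in WT and at 888, 1009 and 1037 CPM in KO. The difference was 1.77-fold (978 ± 79.0 against 552 ± 18.2 CPM), with a log2 fold change of 0.83 (SE 0.0671, edgeR adjusted p = 9.505e-06) under TMM and of -0.31 (adjusted p = 0.0121) relative to muscle fiber genes.

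*Csrp3* (ENSMUSG00000030470.15, chr7:48830398-48848033, minus strand) codes for muscle LIM protein, a partner of alpha-actinin and telethonin. It was at 98.6, 96.2 and 98.5 CPM in WT and at 156, 186 and 172 CPM in KO. The WT samples lay within a CV of 1.37%, and no KO sample came near them. The mean was 1.75-fold higher in KO (171 ± 15.0 against 97.8 ± 1.34 CPM), a log2 fold change of 0.81 (SE 0.0598, edgeR adjusted p = 5.135e-06) that became -0.33 (adjusted p = 0.00938) on the muscle fiber scale.

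*Pdlim3* codes for ALP, the actinin-associated LIM protein, and *Pdlim5* for ENH, which also binds protein kinase C. *Pdlim3* (ENSMUSG00000031636.7, chr8:45885461-45919548, plus strand) was at 147, 139 and 147 CPM in WT and at 275, 340.2 and 334 CPM in KO. It was 2.19-fold higher in KO (316 ± 35.9 against 144 ± 4.84 CPM), with a log2 fold change of 1.13 (SE 0.0771, edgeR adjusted p = 2.954e-06) against -0.01 (adjusted p = 0.95) on the muscle fiber scale. *Pdlim5* (ENSMUSG00000028273.15, chr3:142239590-142395696, minus strand) was at 184, 180.5 and 187 CPM in WT and at 284, 363 and 357 CPM in KO. Its mean rose 1.82-fold, from 184 ± 3.45 to 334 ± 44.1 CPM, and its log2 fold change was 0.86 (SE 0.0848, edgeR adjusted p = 3.412e-05), or -0.28 (adjusted p = 0.0256) on the muscle fiber scale. For both genes KO replicate 1 was the lowest KO sample and still exceeded all WT samples.

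**Figure D3:**
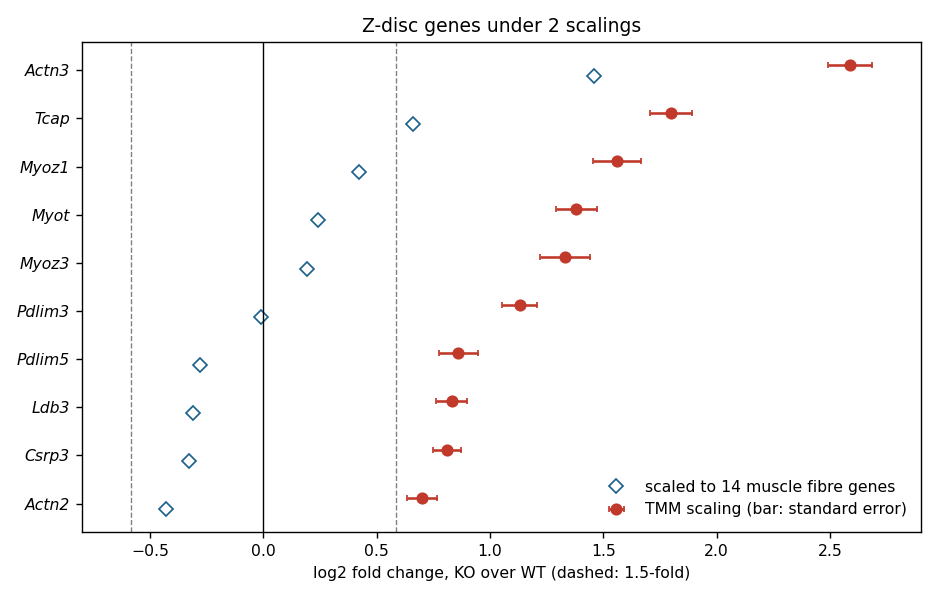
Log2 fold change of KO over WT for each Z-disc gene, with TMM scaling (red, bars are standard errors) and scaled to 14 muscle fiber genes (open diamonds); dashed lines mark 1.5-fold. With TMM all 10 genes lie above 1.5-fold, and relative to muscle fiber genes *Actn3* (1.46) and *Tcap* (0.66) stay above it and 5 genes fall below 0.

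Among all genes tested, the 10 ranked between 66 (*Actn3*) and 1570 (*Actn2*) by log2 fold change under TMM. *Tcap* ranked 200, *Myoz1* 277, *Myot* 358, *Myoz3* 397, *Pdlim3* 592, *Pdlim5* 1067, *Ldb3* 1181 and *Csrp3* 1216. The share of genes with a log2 fold change over that of *Actn3* was 0.295%. The order of the differences was not the order of the levels. *Actn2* and *Ldb3*, the genes with the highest CPM, were among the 4 with the smallest differences, and *Actn3* and *Tcap* had the largest differences from low WT levels.

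**Figure D4:**
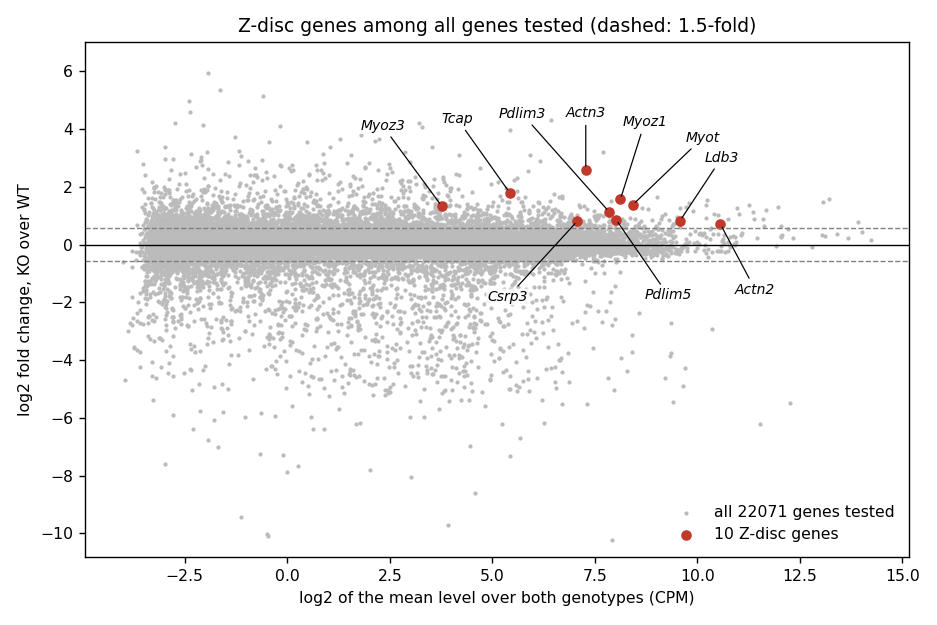
Log2 fold change of KO over WT (TMM) against the log2 of the mean CPM over both genotypes for all 22071 genes tested (grey) and the 10 Z-disc genes (red, named); dashed lines mark 1.5-fold. The 10 genes lie above the upper line at low (*Myoz3*) to high (*Actn2*) levels, and relative to muscle fiber genes 5 of them turn below 0.

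Levels of different genes were compared as CPM per kilobase of merged exons. In WT the order ran from *Actn2* (303 CPM per kilobase) through *Ldb3* (90.4), *Myot* (86.6), *Myoz1* (74.6), *Csrp3* (36.6), *Pdlim3* (28.0), *Pdlim5* (20.7), *Tcap* (20.2) and *Actn3* (15.2) to *Myoz3* (2.25). The ranges of *Ldb3* and *Myot*, and those of *Pdlim5* and *Tcap*, overlapped across samples. Neighbours in this order were not compared within each sample, so an overlap does not mean that they were level. In KO the order was *Actn2* (494 CPM per kilobase), *Myot* (226), *Myoz1* (220.1), *Ldb3* (160.2), *Actn3* (91.9), *Tcap* (70.2), *Csrp3* (64.1), *Pdlim3* (61.5), *Pdlim5* (37.7) and *Myoz3* (5.66). *Myot* and *Myoz1* overlapped there, as did *Tcap* with *Csrp3* and *Csrp3* with *Pdlim3*. *Actn3* thus stood in the ninth place in WT and the fifth in KO, above *Tcap*, *Csrp3*, *Pdlim3* and *Pdlim5*, which exceeded it in WT. *Actn2* was the first and *Myoz3* the last in both genotypes. Summed over the 10 genes, the level was 2562, 2459 and 2574 CPM in WT and 4387, 5247 and 5193 CPM in KO, 1.95-fold higher.

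The lowest sample of each genotype was the same across the genes, and the highest was not. WT replicate 2 was the lowest WT sample in all 10 genes and KO replicate 1 the lowest KO sample in all 10. The highest WT sample was replicate 3 in 7 genes and replicate 1 in 3, and the highest KO sample was replicate 2 in 8 genes and replicate 3 in 2. The spread within genotypes was larger in KO, with CVs of 7.39% to 15.8%, than in WT, with 0.957% to 10.1%. The lowest samples held 2 (WT replicate 2) and 7 (KO replicate 1) counts on the Y-linked genes *Ddx3y*, *Eif2s3y*, *Kdm5d* and *Uty*, while the other 4 samples held 6179 to 15747. In the 4 samples with Y-linked counts, 2 of each genotype, 10 of the 10 genes were called higher by edgeR. Their log2 fold changes ran from 0.77 (*Actn2*) to 2.62 (*Actn3*). Of all 22299 genes tested in that fit, 1946 were called higher and 1919 lower. WT replicate 2 also had the highest keratinocyte sum (24275 CPM) and the lowest muscle fiber sum (24929 CPM against 27066 and 27857 CPM), and KO replicate 1 the lowest muscle fiber sum in KO (51490 CPM against 62201 and 63221 CPM). The part of these differences in which sample was lowest was not tested.

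Of 40 other genes of the Z-disc and its neighbourhood, listed by role, 14 were called higher and 2 lower in KO. By the same rule 8.31% of all genes tested were called higher and 8.39% lower. The remaining 24 of the 40 were not called, and the median log2 fold change of the 40 was 0.43. By the adjusted p-value alone 31 were higher and 3 lower, where 21.9% of all genes tested were higher and 23.1% lower by that rule. Relative to muscle fiber genes, 1 of the 40 was called higher and 26 lower, beside the 87.8% of all genes that were.

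Genes that cap or anchor actin filaments held the largest differences, with 5 of 10 called higher and 1 lower under TMM. *Xirp2*, which codes for an actin-binding protein of the myotendinous junction, rose from 16.9 ± 1.86 to 99.5 ± 11.4 CPM (log2 fold change 2.55, SE 0.0992, edgeR adjusted p = 1.21e-07) and was the gene of the 40 that was also called higher relative to muscle fiber genes (1.42). *Nrap*, a nebulin-related protein of growing myofibrils, rose from 123 ± 5.09 to 351 ± 19.5 CPM (1.51, adjusted p = 8.892e-08; 0.38 relative to muscle fiber genes, not called). *Nebl*, which codes for nebulette, a relative of nebulin, fell from 18.6, 24.9 and 17.7 CPM to 2.14, 2.46 and 2.40 CPM (log2 fold change -3.13, SE 0.138, edgeR adjusted p = 2.079e-07). Its highest WT sample was replicate 2, which also had the highest keratinocyte sum.

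Of the filamin, intermediate filament and chaperone genes, 4 of 7 were called higher under TMM. *Des*, which codes for desmin, the filament that ties neighbouring Z-discs together, rose from 876 ± 6.72 to 1826 ± 227 CPM (log2 fold change 1.06, SE 0.0869, edgeR adjusted p = 9.957e-06; -0.08 and not called relative to muscle fiber genes). *Synm*, its partner synemin, rose from 8.78 ± 0.876 to 21.9 ± 2.36 CPM (1.32, adjusted p = 5.083e-06; 0.18 relative to muscle fiber genes, not called). Of the ankyrin repeat proteins 2 of 3 were called higher, led by *Ankrd2*, a stretch-responsive partner of titin, at 2.30 ± 0.164 and 7.42 ± 1.46 CPM (1.69, adjusted p = 1.299e-05; 0.54 relative to muscle fiber genes, not called).

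Of the 4 other PDZ-LIM genes none was called higher, and *Pdlim2* fell, from 28.1, 41.4 and 30.1 CPM in WT to 7.63, 8.16 and 7.78 CPM in KO (log2 fold change -2.08, SE 0.134, edgeR adjusted p = 2.084e-06). As for *Nebl*, WT replicate 2 was the highest, and the part of keratinocyte RNA in these falls was not tested. Of the 5 other LIM-only genes 1 was called higher, of the 2 palladin family genes 1 and of the 3 synaptopodin genes 1. The last was *Synpo2*, the host gene of *SYISL* and itself a Z-disc gene, at 136 ± 4.21 and 214 ± 18.9 CPM (log2 fold change 0.66, SE 0.0632, adjusted p = 2.894e-05) under TMM and at -0.48, not called, relative to muscle fiber genes. None of the 4 genes of calcineurin and its regulator was called, with a median log2 fold change of 0.17.

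**Figure D5:**
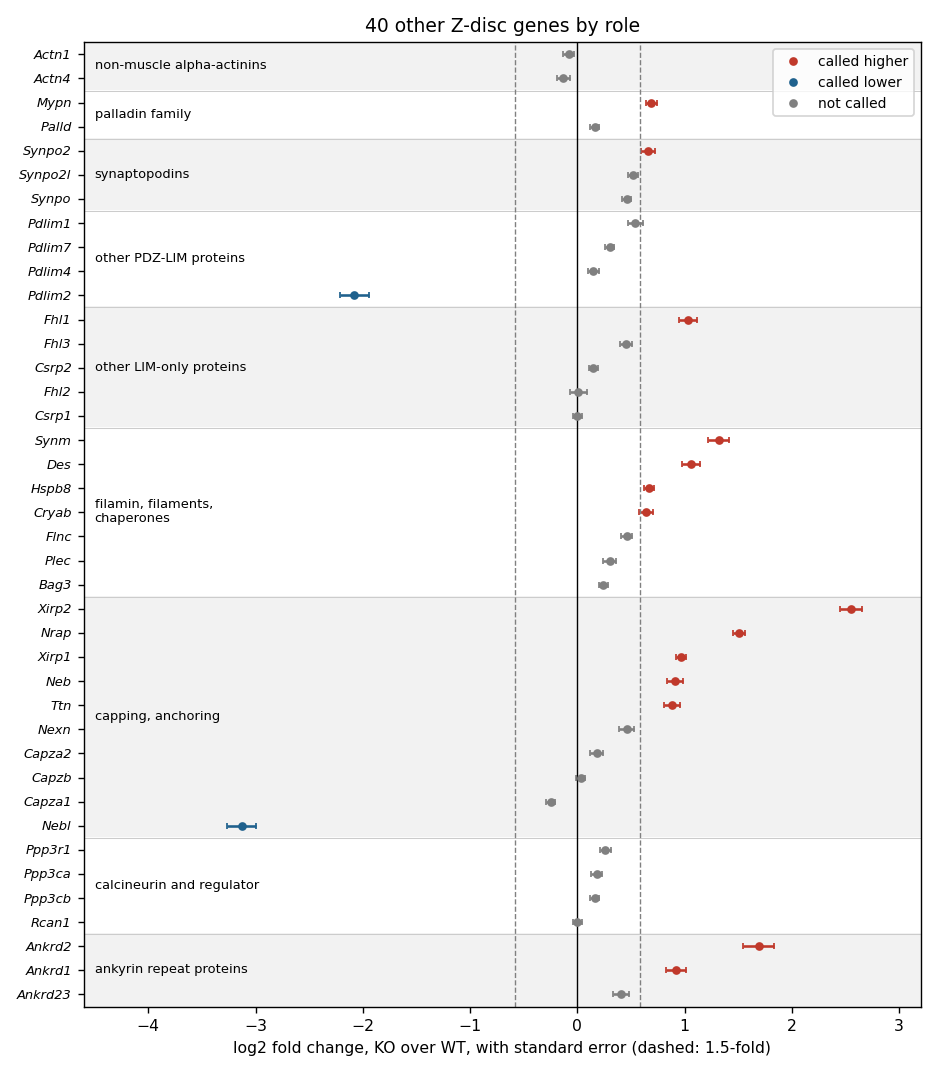
Log2 fold change of KO over WT (TMM) with its standard error for 40 other Z-disc genes, grouped by role; red, blue and grey points were called higher, called lower and not called, and dashed lines mark 1.5-fold. *Xirp2* (2.55) and *Nebl* (-3.13) lie at the ends of the range, and relative to muscle fiber genes 1 of the 40 was called higher and 26 lower.

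Markers of other cells moved between the genotypes beside the Z-disc genes. The muscle fiber list rose 2.22-fold in its summed level, from 24929 to 27857 CPM in WT to 51490 to 63221 CPM in KO, with 11 of 14 genes called higher, 0 lower and a median log2 fold change of 1.12. Its most abundant gene was *Myh8*, the perinatal myosin heavy chain, with mean levels of 4710 and 14165 CPM in WT and KO. The myoblast and satellite cell list differed little, at 296 to 320 CPM in WT and 271 to 278 CPM in KO, led by *Myog*, with 0 of 5 genes called by edgeR (0 higher and 2 lower at an adjusted p-value under 0.05 alone). All 9 keratinocyte genes were called lower, *Krt1* from a mean of 9575 to 215 CPM. Of the heart muscle genes, which share Z-disc proteins with skeletal muscle, 1 was called higher and 1 lower of the 4 tested, and the sum was 305 to 324 CPM in WT and 264 to 267 CPM in KO, most of it *Tnnt2*. Among these *Nppa* had 2 to 7 counts in any sample. Red blood cell genes summed to 1408 to 1715 CPM in WT and 205 to 230.5 CPM in KO (4 of 4 lower, led by *Hba-a1*), and fat cell genes to 6.41 to 22.6 CPM and 116 to 136 CPM (4 of 4 higher, led by *Adipoq*). The fibroblast (40318 to 43363 CPM in WT and 48331 to 50295 CPM in KO, led by *Col1a1*), bone (888 to 931 and 841 to 913 CPM, *Ibsp*), smooth muscle (473 to 484 and 458 to 493 CPM, *Acta2*) and endothelium lists (568 to 595 and 663 to 697 CPM, *Cdh5*) changed 0.965- to 1.17-fold in their sums. Within these sums, 1 of 4 smooth muscle genes was called higher, and of 4 bone genes 1 was called higher and 1 lower. No fibroblast or endothelium gene was called. At an adjusted p-value under 0.05 alone, 5 of 6 fibroblast and 3 of 4 endothelium genes were higher and 0 lower. Cartilage genes summed to 348 to 442 CPM in WT and 309 to 313 CPM in KO (led by *Col2a1*, 1 of 5 called higher and 2 lower). Macrophage genes summed to 167 to 181 and 271 to 299 CPM (*Mrc1*, 2 of 4 higher), and Schwann cell genes to 68.2 to 72.1 and 95.9 to 116 CPM (*Mbp*, 1 of 4 higher). No gene of these lists was at 0 in all samples, and the part of these shifts in the differences of the Z-disc genes was not tested.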

How the data were processed

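The data are RNA-seq of leg muscle at E18.5 from 3 WT and 3 *SYISL* KO samples, grouped by the genotype in their labels. According to the methods and processing notes, 150 bp paired-end reads were trimmed with Trim Galore 0.6.6, mapped to mm10 with HISAT2 2.2.1 and counted with featureCounts 2.0.1. The authors deposited raw counts per gene, as whole numbers without normalization, for each sample and as 1 table, and 0 values differed between these. The annotation, the strand setting and whether pairs were counted are not given in the sources used here. Per the labels total RNA was used, and antisense or overlapping transcripts may share counts. No exon of the 10 genes overlapped that of another gene in GENCODE M21 (mm10), and of their stretches of 100 bases 1 of *Myoz3* (0.03%) occurred in another gene.

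Gene IDs were matched to GENCODE M21 without their version, and 55227 of 56262 matched. Genes were filtered with filterByExpr and scaled with TMM, and KO was compared with WT by edgeR 4.0.16 (R 4.3.3) with Benjamini-Hochberg adjustment over all 22071 genes tested. Calling a gene needed both an adjusted p-value under 0.05 and more than a 1.5-fold change. CPM are TMM-scaled, and the common biological CV was 7.68%. The ratios of paralogs were compared with exact permutation tests. The fits were tested on simulated data. The 10 genes, the lists and the tests were chosen with earlier results of these data known. Named were all 10 genes, *Synpo2*, *Actn1*, *Actn4* and the most abundant gene of marker lists. Of the other Z-disc genes, the 5 called higher and the 2 called lower with the largest log2 fold changes were also named. By their part in a result, *Ttn*, *Nppa*, *Tnnc2* and *Myh3* were added, which were chosen after their values were seen.

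Samples with the same replicate number did not deviate together (correlations -0.2, -0.134 and 0.0472) and were not treated as paired. Samples of a genotype differed by more than counting noise (mean chi-square per gene 5.17 to 35.5, where counting noise gives 1). Alternatives were other scalings (RLE, upper-quartile, library size, size factors from 14 muscle fiber genes, library sizes without the 10 most counted genes), DESeq2 1.42.0, limma-voom 3.58.1, other filters and thresholds, a replicate block, the Y-linked share as a covariate and leaving out each sample. A fit on the 4 samples with Y-linked counts was added after seeing the data. Promoter windows came from RefSeq, and those of *Actn3*, *Myoz1*, *Myoz3*, *Myot* and *Tcap* were not used here.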

Additional observations from a re-analysis of the deposited data

How the results depend on the processing

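All 10 Z-disc genes were called higher under TMM, RLE, upper-quartile and library size scaling, without the 10 most counted genes in the library sizes, with DESeq2 and limma-voom, without a filter, with a minimum of 10 counts per sample, with the Y-linked share as a covariate and in the 4 samples with Y-linked counts. With a replicate block, although the numbers do not pair the samples, 10 of the 10 genes were called, as were 1744 genes higher and 1777 lower in all and 14 higher and 2 lower of the other Z-disc genes. The exception was scaling to muscle fiber genes. Under it 193 genes were called higher and 19381 lower, 2 of the 10 Z-disc genes were called higher, and 1 of the other Z-disc genes was called higher and 26 lower. The log2 fold changes of *Actn2* (-0.434), *Ldb3* (-0.312), *Csrp3* (-0.329), *Pdlim5* (-0.281) and *Pdlim3* (-0.008) turned, and those of *Myoz1* (0.417), *Myot* (0.241) and *Myoz3* (0.191) kept their direction and were no longer called, since this scaling shifts the median gene by -1.13.

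Higher genes made up 49.8% of all calls under TMM, 56.7% under upper-quartile scaling, 42.3% by library size and 0.986% relative to muscle fiber genes. Without a fold-change threshold 4838 genes were higher and 5098 lower, among them 31 of the other Z-disc genes higher. At a fold change over 2, 774 genes were called higher, with 6 of the 10 Z-disc genes and 6 of the other Z-disc genes. Leaving out 1 sample at a time gave 1660 to 1953 genes higher and 1691 to 1924 lower, 10 of the 10 Z-disc genes throughout, and 14 to 15 of the other Z-disc genes higher and 2 lower. The difference in log2 ratio ranged from 1.817 to 1.931 for *Actn3* to *Actn2* and from 0.204 to 0.252 for *Myoz1* to *Myoz3* over these, and was 1.856 and 0.27 in the 4 samples with Y-linked counts. The log2 fold changes of the 10 genes ranged from 0.67 to 0.77 for *Actn2* and from 2.52 to 2.69 for *Actn3* as samples were left out. The lowest count among the 10 genes was 564, of *Myoz3* in WT replicate 2, and with 3 samples per genotype the exact tests of the ratios could not go below 0.1.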
